A study of Homo sapiens with 12 samples.

Results

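The genes described here are 34 named lysosome and autophagy genes, chosen by symbol and matched to the rows of the gene table through their Ensembl identifiers. The table holds 20595 genes, and 31 of the 34 were found in it. CTSC, CTSL and CTSZ were not analysed here. By role, the list has 19 soluble hydrolases and activators, 6 membrane proteins and transporters, 4 proton pump genes, and 5 autophagy genes and their regulator.

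RNA was sequenced from A549 and H1792, established human lung adenocarcinoma lines that the study describes as MDM2 amplified. The study examined how cells with this amplification respond to RG7112, a small molecule that blocks the binding of MDM2 to p53. Each line was kept for 48 h in DMSO, the solvent, or in RG7112 at 1 μM, so that the 4 groups of 3 replicates made 12 samples. Of the lines, A549 was taken to be WT for p53 and H1792 to carry mutant p53. There was 1 line of each kind, so a difference between the lines is not a difference between p53 states. Nothing in the labels says whether the replicates were separate cultures, so p-values measure only the spread between these samples.

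The lysosome is the acidic organelle in which cells break down proteins, lipids, glycans and glycogen. Its lumen is acidified by the V-ATPase, a proton pump in the membrane, and holds soluble hydrolases that work together with activator proteins. Autophagy wraps cytoplasm in a double membrane and delivers it to the lysosome. TFEB and its relatives are transcription factors that switch on many of these genes by binding the letters CACGTG, often within the longer palindrome TCACGTGA that is known as the CLEAR element.

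Promoters from RefSeq (build GRCh38.p14, 250 bases before to 50 bases after the start site) were matched by symbol for 24 of the 31 members. Both motifs read the same on either strand, and the longer one contains the shorter. CACGTG was present in the promoters of 8 members (ATP6V0D1, CD63, CTSA, CTSD, GAA, LAMP1, MCOLN1 and NEU1), while 8.77% of all genes with a promoter held it. TCACGTGA was present in 5 (ATP6V0D1, CTSA, GAA, LAMP1 and MCOLN1), against 1.18% of all genes. A match is a description of the letters and not a measured binding site. The 100 bases before the start site are given for these 5, because they place the motif beside the values that follow, with TCACGTGA in capitals.
GAA, encoding the acid glucosidase that degrades glycogen (chr17:80101481-80101580, plus strand): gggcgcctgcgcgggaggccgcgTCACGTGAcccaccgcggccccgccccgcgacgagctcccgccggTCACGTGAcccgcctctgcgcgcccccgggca
CTSA, encoding cathepsin A (chr20:45891235-45891334, plus strand): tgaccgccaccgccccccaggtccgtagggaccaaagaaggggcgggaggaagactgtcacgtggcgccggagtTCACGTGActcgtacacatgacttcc
ATP6V0D1, encoding a subunit of the membrane sector of the V-ATPase (chr16:67481158-67481257, minus strand): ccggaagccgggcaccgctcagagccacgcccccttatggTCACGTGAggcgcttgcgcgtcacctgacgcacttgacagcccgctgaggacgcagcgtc
MCOLN1, encoding the lysosomal cation channel mucolipin-1 (chr19:7522524-7522623, plus strand): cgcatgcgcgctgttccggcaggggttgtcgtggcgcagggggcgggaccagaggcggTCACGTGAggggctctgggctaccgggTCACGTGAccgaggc
LAMP1, encoding an abundant glycoprotein of the lysosomal membrane (chr13:113297139-113297238, plus strand): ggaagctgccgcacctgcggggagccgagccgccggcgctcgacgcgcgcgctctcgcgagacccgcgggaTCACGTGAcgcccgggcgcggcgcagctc
The first base of the motif lay at -77 and at -32 in GAA, at -42 and at -15 in MCOLN1, at -26 in CTSA, at -60 in ATP6V0D1 and at -29 in LAMP1, counted from the base before the start site as -1.

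Libraries held 2011916 to 6218825 counts, so that 3 counts corresponded to 0.465 to 1.43 CPM (counts scaled to a common library size, with TMM factors over all 12 samples). MDM2, which p53 itself induces, rose in A549 from 8.54 ± 4.99 to 69.2 ± 9.27 CPM (SD, n = 3, edgeR adjusted p = 0.0102), and in H1792 was 11.2 ± 4.51 CPM in DMSO and 10.2 ± 1.49 CPM with RG7112. The 6 epithelial markers summed to 14500 to 24100 CPM in the A549 samples and to 1070 to 2180 CPM in the H1792 samples. Of these, CDH1 had 3 counts or fewer in every H1792 DMSO sample and exceeded this in at least 1 H1792 sample with RG7112. Of 5 alveolar lineage markers, NKX2-1, SFTPA1, SFTPB and SFTPC had 3 counts or fewer in every sample of both lines, and NAPSA did so in H1792 only, the list summing to 1.74 to 6.25 CPM in A549. Of 4 blood cell markers, 3 had no more than 3 counts in any sample, while CD14 exceeded this in both lines, and the list summed to 13.3 to 23.7 CPM in A549 and to at most 1.15 CPM in H1792. PECAM1 and VWF of endothelium stayed at 3 counts or fewer, whereas CDH5 exceeded this in A549 with RG7112, with the 3 endothelial markers summing to at most 1.91 CPM there. In each A549 treatment, replicate 3 stood apart from the other two. Its counts differed from theirs 15.5 to 23.3 times as much as counting alone would give (chi-square per degree of freedom), against 5.12 to 5.63 for replicates 1 and 2. A549 results are therefore given with and without these samples.

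Without the inhibitor the members differed widely in level. Levels of different genes are compared per kilobase of the longest annotated transcript. In A549 DMSO samples the first gene was SQSTM1, which encodes the autophagy receptor p62, at 1310 ± 49.5 CPM per kb (SD, n = 3). It was followed by CD63, a tetraspanin of late endosomes and lysosomes, at 873 ± 219 CPM per kb and by CTSD, the aspartic protease cathepsin D, at 612 ± 118 CPM per kb. In H1792 DMSO samples CD63 stood first with 632 ± 54.2 CPM per kb, and SQSTM1 had 220 ± 42.1 CPM per kb. Between them were CTSD with 349 ± 52.6 CPM per kb and NPC2, a carrier of cholesterol in the lysosomal lumen, with 256 ± 5.38 CPM per kb. In A549 the samples of SQSTM1 were all above those of CD63, whereas the ranges of CD63 and CTSD overlapped. In H1792 the ranges of NPC2 and SQSTM1 overlapped.

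**Figure D1:**
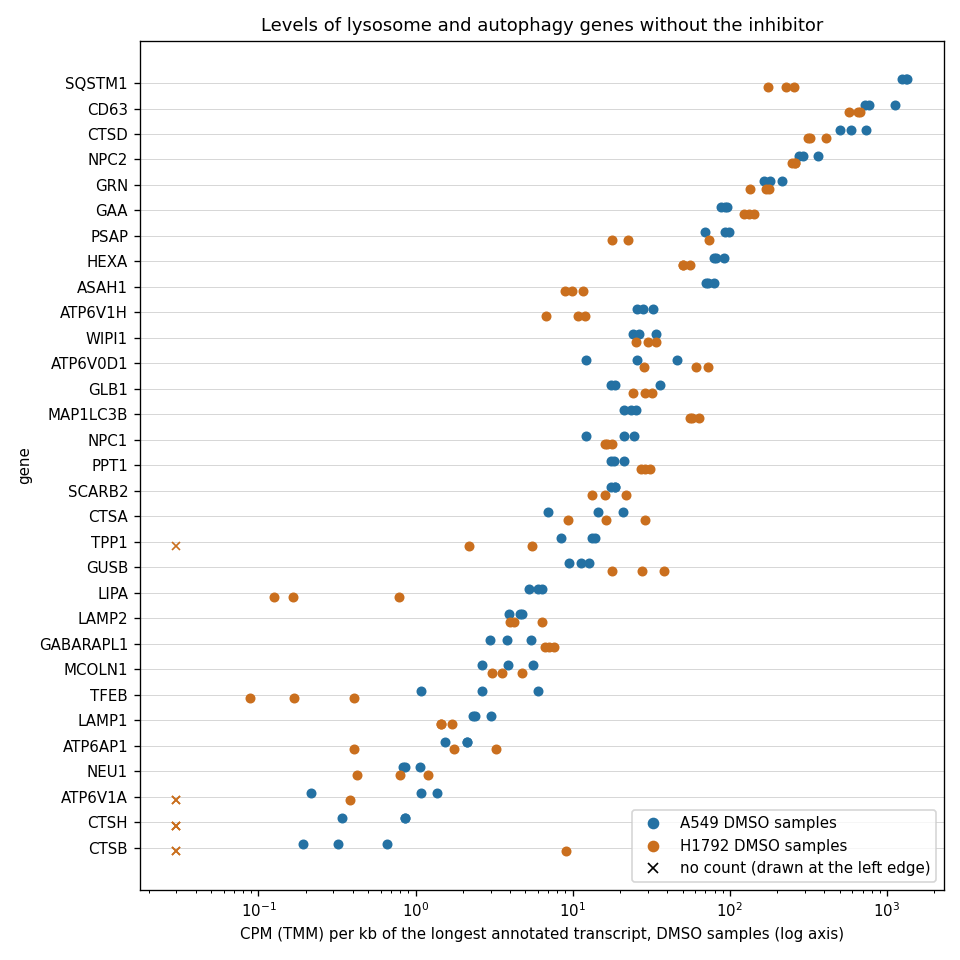
Levels of the 31 members in the 6 DMSO samples, as CPM per kb of the longest annotated transcript on a log axis, with 1 point per sample and genes ordered by their mean in A549. SQSTM1 is first in A549, with a mean of 1310 CPM per kb, and lies apart from its H1792 samples, whose mean is 220 CPM per kb.

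At the low end, several members rested on few counts. LAMP1 had only 9 to 69 counts per sample and NEU1, a sialidase, 1 to 11 counts. CTSH had no count in any H1792 sample, and TFEB had 3 counts or fewer in each of them. CTSB had 0, 151 and 0 counts in the DMSO samples of H1792, so its level there came from replicate 2 alone. The same table lists B2M, a gene that most human cells express strongly, at 19 to 209 counts and GAPDH at 46851 to 180425 counts. Low levels are therefore given as the table lists them, and not as a measure of how much transcript the cells held. The filter on low counts removed CTSH and NEU1 in A549, leaving 29 members tested, and CTSB, CTSH, NEU1 and TFEB in H1792, leaving 27. Exact two-sided permutation tests of log2(CPM + 1) gave p = 0.7 and 1.0 for CTSH and NEU1 in A549 and p = 1.0, 0.1 and 0.2 for CTSB, NEU1 and TFEB in H1792, where 3 samples against 3 cannot give a p below 0.1.

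The first comparison asked how the lines differ before treatment. In DMSO, 8 members were higher in A549 and 4 were higher in H1792 (edgeR, adjusted p under 0.05), of 29 tested. Over all 11666 genes tested, 25.6% were higher in A549 and 22.0% lower, so these shares (27.6% and 13.8% of the members) were near the background for the higher direction and below it for the other. SQSTM1 had 3740, 3940 and 4020 CPM in A549 and 767, 520 and 680 CPM in H1792. This was a difference of 2.57 ± 0.13 on the log2 scale (SE, adjusted p = 7.61e-08), or 5.95-fold. MAP1LC3B, which encodes the LC3B protein that coats autophagosome membranes, had the opposite order, with 68.1, 57.2 and 63.3 CPM in A549 and 170, 150 and 154 CPM in H1792 (-1.33 ± 0.11, adjusted p = 3.64e-06).

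Among the hydrolases, ASAH1, the acid ceramidase, had 243, 220 and 215 CPM in A549 and 30.3, 35.3 and 27.0 CPM in H1792, a difference of 2.86 ± 0.16 (log2, SE, adjusted p = 1.96e-07). LIPA, the lysosomal acid lipase, had 14.7, 16.7 and 17.7 CPM in A549, while the H1792 DMSO samples held 1, 2 and 5 counts. From summed counts the ratio was 19.5, with an exact 95% interval of 9.72 to 45.8 that covers counting error only, and the fitted difference had an adjusted p of 0.00018 (edgeR). TFEB was likewise near the floor in H1792, with 3, 1 and 1 counts, against 2.81, 6.83 and 15.7 CPM in A549 (ratio 16.2, interval 6.73 to 50.8, edgeR adjusted p = 0.00139). The A549 values of TFEB were themselves spread over a wide range.

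The other members that were higher in A549 were HEXA (0.69 ± 0.10, adjusted p = 0.000253), the V-ATPase subunit ATP6V1H (1.53 ± 0.21, adjusted p = 0.000138), CTSD (0.81 ± 0.29, adjusted p = 0.0413) and CD63 (0.47 ± 0.16, adjusted p = 0.0302). GAA (-0.53 ± 0.11), GUSB, the beta-glucuronidase (-1.31 ± 0.28), and PPT1, a thioesterase that removes fatty acids from proteins (-0.61 ± 0.14), were lower in A549. CTSD and CD63 did not keep their calls when single DMSO samples were left out: without A549 replicate 3 or any 1 of the 3 H1792 samples for both, and also without A549 replicate 2 for CTSD, with adjusted p up to 0.125 and 0.11. With library sizes alone as the scaling, 13 members were higher in A549 and 3 lower, against 3680 and 1972 of all 11666 genes tested. The median of all genes then moved from 0.09 to 0.35 (log2). Without replicate 3 of both A549 treatments, 8 members were higher and 6 lower, against 3137 and 2901 of all 11860 genes tested.

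The second comparison was RG7112 against DMSO in A549. Of the 29 members tested, 4 rose (13.8%) and none fell (edgeR, adjusted p under 0.05), where 4.35% of all 10739 genes tested were higher and 4.03% lower. GAA, PSAP and GRN of the soluble proteins and WIPI1 of the autophagy genes rose by 1.85- to 2.22-fold. At an unadjusted p under 0.05, 14 members were higher and 2 lower, against 1335 and 1232 of all 10739 genes tested. DESeq2 called 11 higher and 1 lower, against 756 and 682 genes, and limma 5 higher and 0 lower, against 500 and 460. The 11 were the 4 above with ASAH1, ATP6V0D1, CTSD, HEXA, NPC1, SQSTM1 and TPP1, and the 1 that fell was GUSB. By the rule for differentially expressed genes (DEGs), which also asks for an absolute log2 fold change over 1, 3 members passed, against 6.19% of all genes.

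GAA, with 2 copies of TCACGTGA in its promoter (above), had 346, 320 and 338 CPM in DMSO and 670, 672 and 865 CPM with RG7112. The treatments did not overlap, and replicates 1 and 2 of RG7112 were nearly equal. The log2 fold change was 1.14 ± 0.14 (SE, adjusted p = 0.00468). GAA (chr17:80101556-80119879, GRCh38, plus strand) kept its call in each of the 6 fits that left out 1 sample, with values of 1.01 to 1.2.

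PSAP, the precursor of the saposins that present lipids to hydrolases (chr10:71816298-71851375, minus strand), had 283, 266 and 201 CPM in DMSO and 410, 499 and 755 CPM with RG7112. GRN, the progranulin gene (chr17:44345086-44353102, plus strand), had 388, 503 and 419 CPM and then 735, 877 and 1190 CPM. In both genes every treated sample was above every DMSO sample, and RG7112 replicate 3 was the highest. Log2 fold changes were 1.15 ± 0.25 (SE, adjusted p = 0.0372) for PSAP and 1.10 ± 0.20 (adjusted p = 0.0207) for GRN. Without replicate 3 of both treatments they were 0.73 (adjusted p = 0.0238) and 0.86 (adjusted p = 0.0379).

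WIPI1 encodes a protein that binds phosphoinositides on the forming autophagosome (chr17:68420948-68457513, minus strand). It had 62.5, 48.3 and 44.6 CPM in DMSO and 105, 78.7 and 103 CPM with RG7112, without overlap. Its log2 fold change was 0.89 ± 0.20 (SE, adjusted p = 0.0404), and 0.76 (adjusted p = 0.0919) without both replicates 3. The annotated span of the gene overlaps that of ARSG on the other strand. Reads were assigned to transcripts, so only transcript sequence that both genes share could mix their reads. Whether they share any was not checked, and how the counting treated strand is not given in the sources used here. The annotated spans of LIPA, MAP1LC3B, NPC1, NPC2, PPT1, SCARB2 and SQSTM1, called in other comparisons, also overlap coding genes on the other strand. Those of CTSD, GLB1 and HEXA overlap coding genes on the same strand. Shared transcript sequence was not checked for these members either.

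Most of the remaining members had positive values that did not pass. In all, 25 of the 29 log2 fold changes were positive, against 49.1% of all genes tested, and the median was 0.65 against -0.01 for all genes. For 16 members every RG7112 sample was above every DMSO sample, and for 2 every sample was below (16.2% and 16.3% of all genes tested). Of the genes with TCACGTGA, CTSA had 15.0, 31.2 and 44.8 CPM in DMSO and 54.4, 36.7 and 112 CPM with RG7112, which overlapped (1.15 ± 0.51, adjusted p = 0.229). ATP6V0D1 had 44.0, 21.0 and 79.2 CPM and then 134, 116 and 95.3 CPM (1.26 ± 0.44, adjusted p = 0.135). LAMP1 had 8.12, 6.48 and 6.23 CPM and then 10.7, 14.8 and 8.15 CPM (0.68 ± 0.34, adjusted p = 0.275). MCOLN1, which like GAA holds 2 copies of TCACGTGA, had a value of -0.01 ± 0.40.

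CTSD was at 1070, 1260 and 1570 CPM in DMSO and at 1860, 1700 and 4140 CPM with RG7112, so that 1 sample carried much of its value of 0.98 ± 0.36 (adjusted p = 0.146). The negative values were those of GUSB (-1.03 ± 0.28, adjusted p = 0.069), PPT1 (-0.57 ± 0.20, adjusted p = 0.127), ATP6V1A (-0.20 ± 1.1) and MCOLN1. GUSB was called lower by DESeq2 (-1.03, adjusted p = 0.0352). It was also called in edgeR with a correction for GC content (-1.15, adjusted p = 0.0226, below) and with library sizes alone (-1.11, adjusted p = 0.0394). By role, the median log2 fold change was 0.80 for the soluble proteins, 0.35 for the membrane proteins, 0.75 for the pump genes and 0.82 for the autophagy genes.

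The A549 count depended on single samples. It was 1, with GAA alone, without DMSO replicate 1, DMSO replicate 2 or RG7112 replicate 2, and 5 without RG7112 replicate 3. GRN and PSAP were lost without any 1 DMSO sample or RG7112 replicate 2 (adjusted p up to 0.0929 and 0.119), and WIPI1 in every such fit (0.063 to 0.152). Without replicate 3 of both treatments, 10 members rose (GAA, PSAP, GRN, ASAH1, TPP1, HEXA, CTSD, CD63, ATP6V0D1 and SQSTM1) and GUSB fell. Of all 11096 genes tested in that fit, 625 were higher and 571 lower.

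**Figure D2:**
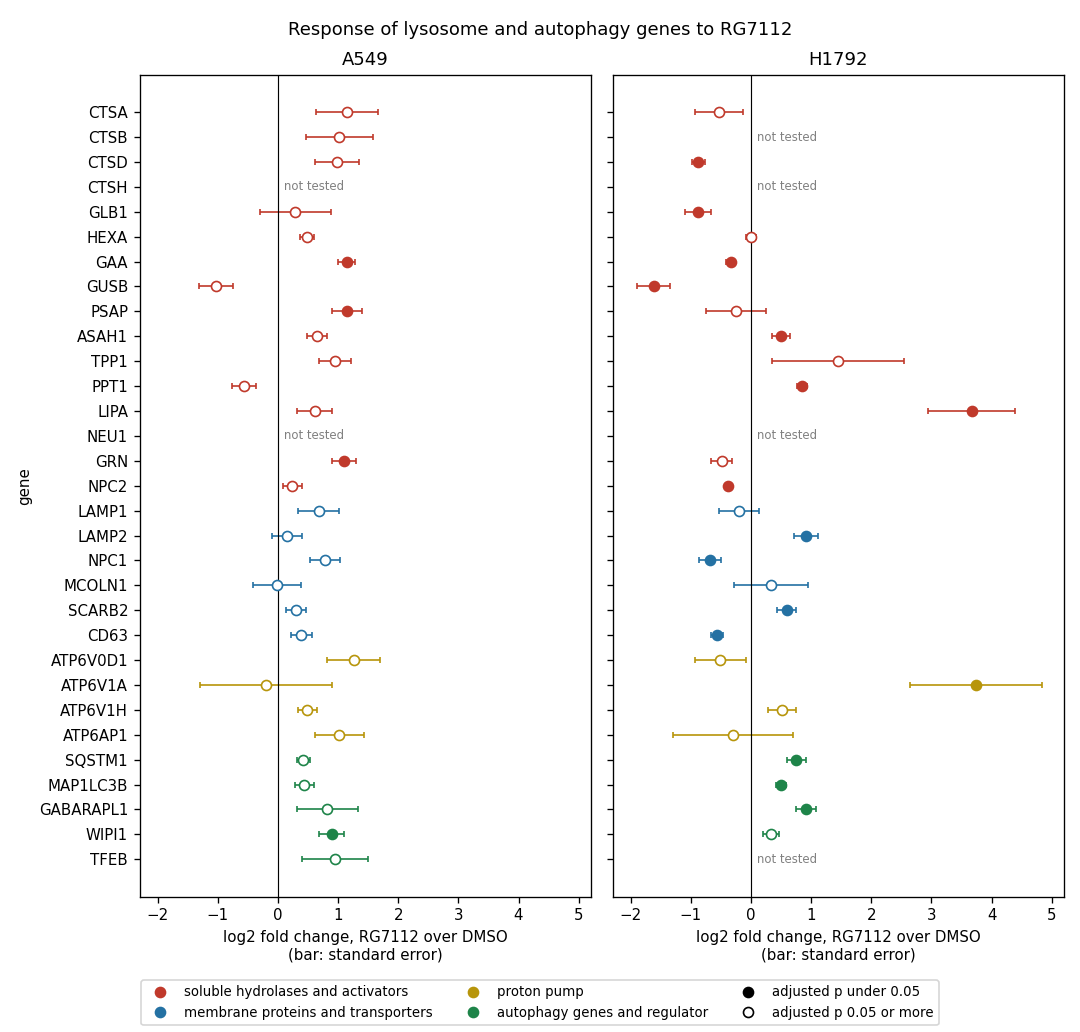
Log2 fold change of RG7112 over DMSO for the 31 members in A549 and H1792, with bars for the standard error, colours for roles and filled points for an adjusted p under 0.05 (edgeR). In A549, 25 of 29 points lie above 0 and 4 are filled; in H1792, 9 filled points lie above 0 and 7 below.

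The third comparison was RG7112 against DMSO in H1792, where 9 of the 27 members tested rose (33.3%) and 7 fell (25.9%). In this line 17.7% of all 9914 genes tested were higher and 16.5% lower, so the members' share was above the background in each direction, and their median of 0.00 was close to the 0.01 of all genes. The 3 tested autophagy genes that make cargo receptor and ATG8-type proteins rose, whereas the hydrolases were divided. Among 40 autophagy genes outside the members, however, 2 rose (5.0%) and 7 fell (17.5%) in H1792 (below). DESeq2 called 8 members higher and 8 lower, against 1704 and 1708 genes, and limma 9 and 7, against 1831 and 1716. By the DEG rule 3 members passed (LIPA, ATP6V1A and GUSB), against 14.6% of all genes. For 9 members the RG7112 samples were all above the DMSO samples and for 8 all below, where all genes gave 24.9% and 28.4%.

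SQSTM1 (chr5:179806398-179838078, plus strand) had 767, 520 and 680 CPM in DMSO and 1010, 1100 and 1030 CPM with RG7112, a log2 fold change of 0.75 ± 0.16 (SE, adjusted p = 0.0137). MAP1LC3B (chr16:87383995-87404779, plus strand) had 170, 150 and 154 CPM and then 208, 209 and 218 CPM (0.50 ± 0.086, adjusted p = 0.00736). GABARAPL1, which encodes another ATG8-type protein (chr12:10212458-10223130, plus strand), had 16.2, 15.2 and 17.4 CPM and then 29.7, 30.8 and 26.5 CPM (0.91 ± 0.17, adjusted p = 0.00859). In all 3 genes the treatments did not overlap, and the calls held whichever sample was left out. WIPI1, the remaining autophagy gene tested, had 46.2, 55.6 and 61.9 CPM in DMSO and 68.2, 67.8 and 59.4 CPM with RG7112 (0.33 ± 0.14, adjusted p = 0.116).

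Of the soluble proteins that rose, PPT1 (chr1:40071461-40097727, minus strand) had 125, 116 and 109 CPM in DMSO and 191, 201 and 208 CPM with RG7112, with a narrow spread in each treatment (0.85 ± 0.087, adjusted p = 0.00282). LIPA (chr10:89213569-89414557, minus strand) went from 1, 2 and 5 counts to 22, 81 and 57 counts, or from 0.352, 0.462 and 2.18 to 5.68, 14.4 and 13.3 CPM. The ratio of the summed counts was 13.8, with an exact 95% interval of 6.82 to 32.4 for counting error, and the fitted log2 fold change was 3.67 ± 0.72 (adjusted p = 0.0109). The annotated span of LIPA holds the IFIT1, IFIT1B, IFIT2 and IFIT3 genes on the other strand. ASAH1 had 30.3, 35.3 and 27.0 CPM and then 40.3, 37.9 and 45.6 CPM (0.49 ± 0.15, adjusted p = 0.0476).

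The soluble proteins that fell included CTSD (chr11:1752752-1764573, minus strand), with 669, 870 and 686 CPM in DMSO and 417, 374 and 356 CPM with RG7112 (-0.88 ± 0.11, adjusted p = 0.00339). GUSB had 41.2, 63.5 and 87.2 CPM and then 20.1, 17.6 and 21.4 CPM (-1.62 ± 0.28, adjusted p = 0.00778). NPC2 had 374, 371 and 359 CPM and then 272, 270 and 264 CPM (-0.38 ± 0.059, adjusted p = 0.00567). For each of these the lowest DMSO sample was above the highest RG7112 sample. GLB1, the lysosomal beta-galactosidase, had 75.1, 84.2 and 63.2 CPM and then 51.7, 34 and 29.8 CPM (-0.88 ± 0.22, adjusted p = 0.0253). GAA had 447, 520 and 480 CPM and then 383, 352 and 351 CPM (-0.34 ± 0.071, adjusted p = 0.0128).

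The membrane proteins were divided as well. LAMP2, the other major lysosomal membrane glycoprotein, had 16.2, 25.8 and 17.0 CPM in DMSO and 34.9, 35.8 and 35.2 CPM with RG7112 (0.91 ± 0.20, adjusted p = 0.0155). SCARB2, the receptor that carries glucocerebrosidase to the lysosome, had 63.8, 104 and 76.7 CPM and then 119, 120 and 111 CPM (0.59 ± 0.16, adjusted p = 0.0332). Both rose without overlap. CD63 had 704, 801 and 833 CPM and then 565, 456 and 474 CPM (-0.57 ± 0.10, adjusted p = 0.00895). NPC1, the membrane protein that takes cholesterol from NPC2, had 91.6, 85.6 and 82.8 CPM and then 66.1, 47.7 and 41.0 CPM (-0.68 ± 0.18, adjusted p = 0.0307), and so fell together with NPC2.

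Of the proton pump genes, ATP6V1A, the catalytic subunit, passed on few counts, with 5, 0 and 0 in DMSO and 15, 68 and 26 with RG7112 (ratio of summed counts 15.0, interval 6.24 to 47.1, and adjusted p = 0.04). The other 3 pump genes had values of -0.51 to 0.51 and did not pass. Of the genes with TCACGTGA other than GAA, CTSA (-0.54 ± 0.40), ATP6V0D1 (-0.51 ± 0.42), LAMP1 (-0.20 ± 0.34) and MCOLN1 (0.33 ± 0.61) did not pass in H1792 either, whereas CTSD and CD63, which hold the shorter CACGTG, fell (above).

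**Figure D3:**
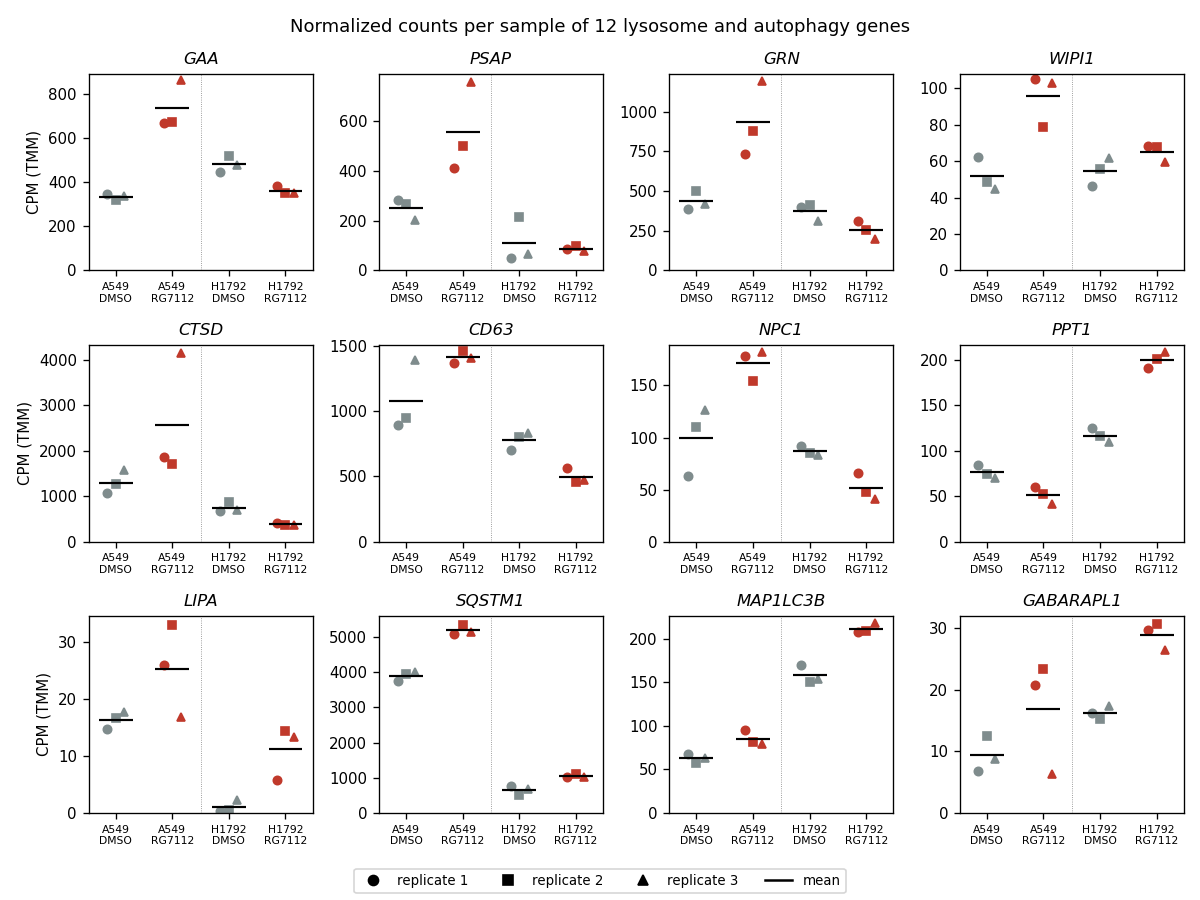
Normalized counts (CPM, TMM) of 12 members in each of the 12 samples, with a marker shape per replicate number and a black line for the mean of 3 replicates. GAA, PSAP and GRN are higher with RG7112 in all A549 samples, whereas CTSD, CD63 and NPC1 are lower with RG7112 in all H1792 samples.

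Calls of 9 members held in H1792 when any 1 sample was left out: CTSD, GUSB, NPC2, CD63, PPT1, LIPA, SQSTM1, MAP1LC3B and GABARAPL1. ASAH1 was lost in each of the 6 fits (adjusted p 0.0722 to 0.147), ATP6V1A in all but the one without DMSO replicate 1 (up to 0.133), and GAA without RG7112 replicate 2 (0.0559). GLB1 was lost without DMSO replicate 1 or 2 or RG7112 replicate 2 or 3 (up to 0.085), and LAMP2 without DMSO replicate 3 or RG7112 replicate 2 or 3 (up to 0.0565). NPC1 was lost without any sample but RG7112 replicate 1 (up to 0.0962), and SCARB2 without any but DMSO replicate 2 (up to 0.102). With library sizes alone as the scaling, 12 members were higher and 3 lower, against 2637 and 849 of all 9914 genes tested. Not called with this scaling (edgeR) were GLB1 (-0.62, adjusted p = 0.057), NPC1 (-0.43, adjusted p = 0.095), NPC2 (-0.12, adjusted p = 0.176) and GAA (-0.08, adjusted p = 0.314). ATP6V1H, HEXA and WIPI1 were called higher. The median of all genes then moved from 0.01 to 0.27 while that of the members moved to 0.26.

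In H1792 the direction of a member went with the GC content of its transcripts. The 9 members that rose had 39.0 to 58.9% GC (median 42.9%) and the 7 that fell 49.2 to 64.6% (median 53.9%). Across the 27 members, Spearman's rho of log2 fold change with GC content was -0.61, and across all 9165 genes with a GC value it was -0.483. In A549 the sign was the other way, with 0.505 over 29 members and 0.256 over 9941 genes. These are correlations across genes of the same libraries, given as a description. When each sample was corrected for its own trend on GC content, rho over all genes was -0.0104 in H1792 and 0.0161 in A549, and over the members it was -0.346 and 0.259.

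With this correction 6 members were higher in H1792 and 6 lower, against 1455 and 1083 of all 9914 genes tested. SQSTM1 (1.16, adjusted p = 0.00769), GABARAPL1 (0.98, adjusted p = 0.0094), MAP1LC3B (0.38, adjusted p = 0.0181), PPT1 (0.61, adjusted p = 0.00466) and LIPA (3.24, adjusted p = 0.0199) still rose. GUSB, GLB1, NPC1, NPC2, CD63 and CTSD still fell, with CTSD at -0.32 (adjusted p = 0.031). GAA turned from -0.34 to 0.26 (adjusted p = 0.0194). LAMP2 (0.37, adjusted p = 0.238), SCARB2 (0.21, adjusted p = 0.437), ASAH1 (0.09, adjusted p = 0.685) and ATP6V1A (3.36, adjusted p = 0.0639) no longer passed. In A549, GAA was 0.91 (adjusted p = 0.00432), GRN 0.87 (adjusted p = 0.0086), PSAP 1.03 (adjusted p = 0.0312) and WIPI1 0.92 (adjusted p = 0.0257) after the correction. This left 6 members higher and 1 lower (GUSB), against 577 and 591 of all 10739 genes tested. The part of GC content in the fold changes was not tested beyond this correction.

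**Figure D4:**
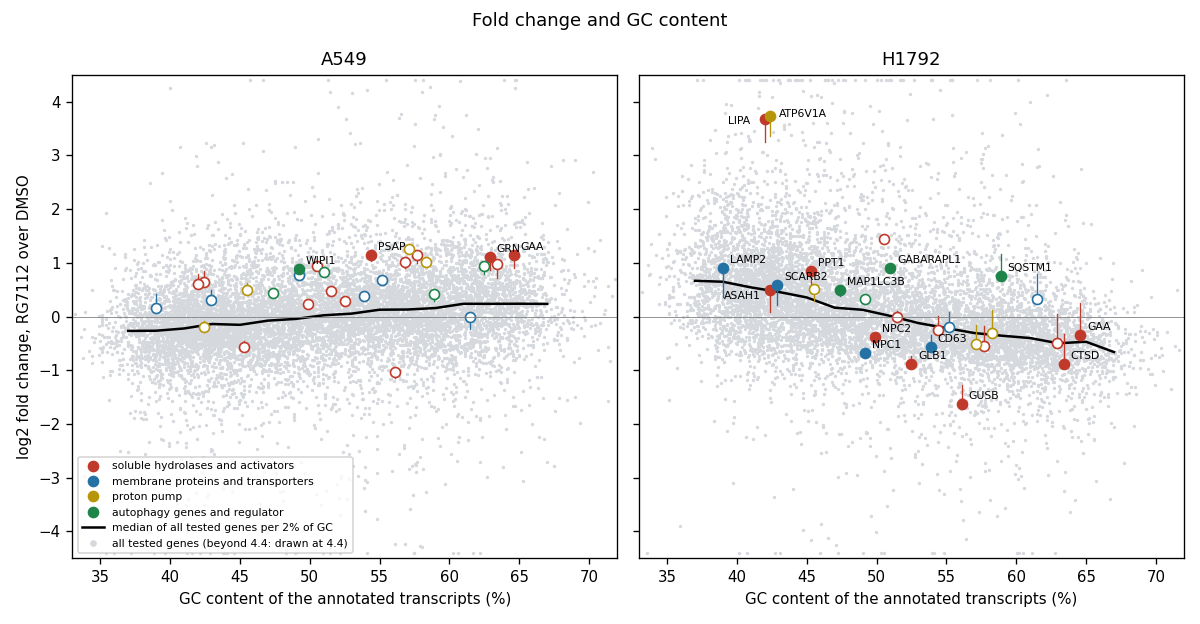
Log2 fold change of RG7112 over DMSO against the GC content of each gene's transcripts in A549 and H1792, with all tested genes in grey, their median per 2% of GC as a black line, and members as circles (filled with an adjusted p under 0.05) joined by a line to their GC-corrected value. The median falls with GC content in H1792 and rises in A549, and the line of GAA in H1792 crosses 0.

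The last comparison tested whether a member responded differently in the 2 lines, as the log2 fold change of A549 minus that of H1792 over all 12 samples. It passed for 9 of 29 members. The response was higher in A549 for 7 (24.1%) and lower for 2 (6.9%), where 10.4% and 11.4% of all 11666 genes tested passed in these directions. GAA had the smallest p, with a difference of 1.55 ± 0.16 (SE, adjusted p = 0.000158), and rose in A549 while it fell in H1792. After the GC correction GAA was higher with RG7112 in both lines and its difference was 0.65 (adjusted p = 0.00896), while that of CTSD was 1.02 (adjusted p = 0.0202) and that of GRN 0.82 (adjusted p = 0.0268). In the main edgeR fits, differences also passed for CTSD (1.94 ± 0.42, adjusted p = 0.00978), NPC1 (1.53 ± 0.34, adjusted p = 0.0105), CD63 (1.04 ± 0.22, adjusted p = 0.0096) and NPC2 (0.69 ± 0.17, adjusted p = 0.0176). In those fits these genes fell in H1792 and did not pass in A549, and they also fell in H1792 with the GC correction (above). DESeq2 called CTSD (1.00, adjusted p = 0.0396) and NPC1 (0.79, adjusted p = 0.0378) higher in A549. In edgeR without both A549 replicates 3, CTSD (0.62, adjusted p = 0.026) and CD63 (0.63, adjusted p = 0.00854) rose there. GRN (1.66 ± 0.29, adjusted p = 0.00398) rose in A549 and did not pass in H1792 in the main edgeR fit (-0.49 ± 0.17, adjusted p = 0.0695). DESeq2 called it lower in H1792 (-0.49, adjusted p = 0.0232).

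HEXA, a subunit of the hexosaminidase that degrades gangliosides, had a difference of 0.56 ± 0.14 (adjusted p = 0.0207). It had 430, 415 and 483 CPM in A549 DMSO samples and 613, 664 and 582 CPM with RG7112, while H1792 had 264, 295 and 265 CPM and then 287, 256 and 240 CPM, which overlapped. The response was lower in A549 for PPT1 (-1.35 ± 0.20, adjusted p = 0.00163) and LIPA (-2.99 ± 0.74, adjusted p = 0.0175). PPT1 in A549 had 84.6, 73.9 and 70.5 CPM in DMSO and 60.3, 52.4 and 41.0 CPM with RG7112, so its samples lay apart in opposite directions in the 2 lines. None of the 5 autophagy genes passed with the edgeR design above or with limma, 1 was higher at an unadjusted p under 0.05, and DESeq2 called WIPI1 (0.70, adjusted p = 0.0424, against 0.63 ± 0.25 and 0.0921 in edgeR). SQSTM1 passed in edgeR with the GC correction (-0.88, adjusted p = 0.0199) and with library sizes alone (-0.65, adjusted p = 0.0356), and TFEB without A549 DMSO replicate 3 (3.44, adjusted p = 0.0395). The differences of SQSTM1 (-0.26 ± 0.17), MAP1LC3B (0.02 ± 0.16) and GABARAPL1 (-0.01 ± 0.59) have intervals that leave room for unequal responses.

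HEXA was lost without DMSO replicate 1 or 2 of A549, DMSO replicate 2 of H1792 or RG7112 replicate 2 or 3 of H1792 (adjusted p up to 0.0652). NPC2 was lost without DMSO replicate 1 or 2 of A549 or RG7112 replicate 3 of H1792 (up to 0.054), and LIPA without DMSO replicate 2 of H1792 (0.0555). With library sizes alone as the scaling, 5 members were higher and 4 lower, against 645 and 2157 of all 11666 genes tested. HEXA (0.17, adjusted p = 0.405) and NPC2 were not called in that edgeR fit, and LAMP2 (-1.08, adjusted p = 0.0458) and SQSTM1 were called lower. The median of all genes then moved from 0.02 to -0.37. Without replicate 3 of both A549 treatments, 8 members were higher and 2 lower, against 1302 and 1416 of all 11860 genes tested.

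The other genes of the pathway came from 5 lists, of hydrolases, lysosomal membrane and sorting genes, V-ATPase genes, autophagy genes, and relatives of TFEB with regulators of mTORC1, with 162 genes in the table. In A549, 12 of the 136 tested rose (8.82%, against 4.35% of all genes) and 0 fell (edgeR), with a median of 0.22. At an unadjusted p under 0.05, 33 were higher and 3 lower, against 1335 and 1232 of all 10739 genes tested. DESeq2 called 23 higher and 2 lower (756 and 682 of all genes), and limma 15 higher and 0 lower (500 and 460). By list, 4 of 30 hydrolases, 4 of 28 membrane and sorting genes, 3 of 42 autophagy genes and 1 of 21 TFEB relatives and mTORC1 regulators rose, and none of 15 V-ATPase genes, for which 2 were higher and 1 lower at an unadjusted p under 0.05 and DESeq2 and limma each called 1 higher. In H1792, 10 of 126 rose (7.94%, against 17.7% of all genes) and 24 fell (19.0%, against 16.5%), with a median of -0.01. By list, 3 of 27 hydrolases rose and 5 fell, and 3 of 25 membrane and sorting genes rose and 5 fell. Of 14 V-ATPase genes 1 rose and 2 fell, and of 40 autophagy genes 2 rose and 7 fell. Of 20 TFEB relatives and mTORC1 regulators, 1 rose and 5 fell. DESeq2 called 9 higher and 28 lower there (1704 and 1708 of all 9914 genes tested), and limma 11 and 26 (1831 and 1716). The difference between the lines passed for 37 of 141, higher in A549 for 33 (23.4%, against 10.4% of all genes) and lower for 4 (2.84%, against 11.4%). DESeq2 gave 36 and 4 (1634 and 1483 of all 11666 genes tested), and limma 34 and 3 (1320 and 1427).

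The 3 of these genes with the smallest p in A549 were CD82, OPTN and TPCN1. CD82, a tetraspanin, had 10.3, 16.0 and 14.4 CPM in DMSO and 191, 186 and 245 CPM with RG7112 (3.92 ± 0.23, adjusted p = 0.000326). OPTN, the autophagy receptor optineurin, had 184, 166 and 173 CPM and then 354, 391 and 328 CPM (1.04 ± 0.12, adjusted p = 0.00407). TPCN1, an ion channel of endosomes and lysosomes, had 252, 256 and 242 CPM and then 434, 479 and 489 CPM (0.90 ± 0.11, adjusted p = 0.00492). None of the 3 overlapped between treatments in A549. In H1792, OPTN had 372, 403 and 401 CPM in DMSO and 295, 284 and 281 CPM with RG7112. TPCN1 had 101, 121 and 123 CPM there and then 85.8, 60.5 and 66.1 CPM, so both were lower with RG7112, while CD82 overlapped.

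In H1792 the 3 smallest p belonged to genes that fell. GABARAP, an ATG8-type gene like GABARAPL1, had 305, 324 and 293 CPM in DMSO and 188, 172 and 163 CPM with RG7112 (-0.74 ± 0.074, adjusted p = 0.00282). CLCN7, the lysosomal chloride transporter, had 313, 333 and 329 CPM and then 219, 211 and 204 CPM (-0.55 ± 0.062, adjusted p = 0.00316), and was at 0.02 after the GC correction. RPTOR, which encodes the raptor subunit of mTORC1, had 235, 252 and 209 CPM and then 136, 130 and 116 CPM (-0.79 ± 0.091, adjusted p = 0.00316), and was at -0.37 (adjusted p = 0.0272) after that correction. GABARAP and GABARAPL1 thus moved in opposite directions in the same libraries, and both kept their direction after the correction, GABARAP with -0.68.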

How the data were processed

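The authors enriched poly-A RNA, pseudoaligned the reads with kallisto 0.45.0 to the Ensembl transcriptome (GRCh38.95) and added transcripts up to genes. They deposited estimated counts per gene, whole numbers without normalization between samples, and all 12 columns were used, matched to samples by the line, treatment and replicate in their names. The column names give another dose than the labels and the paper, whose 1 μM was used, and the sources differ on read length and on the medium of A549. Depth was 2011916 to 6218825 counts per sample, and no 2 replicates agreed within counting noise (chi-square per degree of freedom 5.12 to 23.3).

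GENCODE v29 gave symbols, positions and GC content. With edgeR 4.0.16 (R 4.3.3) low genes were removed by filterByExpr (count of at least 10, total of at least 15), and the rest scaled by TMM and fitted with a robust quasi-likelihood model, per cell line for RG7112 and over all 12 samples for the interaction and for DMSO. Adjusted p-values are Benjamini-Hochberg over all genes tested, a call is an adjusted p under 0.05, and SE is the absolute log2 fold change over the square root of the test's F. The GC correction was a loess per sample (span 0.5) used as offsets. Alternatives included DESeq2 1.42.0 and limma 3.58.1 (prior count 2). The procedure was tested on simulated data. Every member past the threshold is described by sample, and from the other pathway genes the 3 with the smallest p per line. The members, lists and tests were chosen with earlier results of these data known. Intervals of ratios cover counting error only.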

Additional observations from a re-analysis of the deposited data

Results flagged for a closer look

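The response to RG7112 differed between A549 and H1792 in a test of the difference itself for 9 members, as log2 fold change of A549 minus that of H1792. It was higher in A549 for CTSD (1.94), GRN (1.66), GAA (1.55), NPC1 (1.53), CD63 (1.04), NPC2 (0.69) and HEXA (0.56). It was lower in A549 for LIPA (-2.99) and PPT1 (-1.35). With the GC correction, HEXA no longer passed (0.43, adjusted p = 0.055), ASAH1 (0.79) and SQSTM1 (-0.88) did, and GAA (0.65), GRN (0.82) and CTSD (1.02) had smaller differences.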

How the results depend on the processing

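Members changed by RG7112 numbered 4 in A549, and 12 by DESeq2, 7 with at least 10 counts in every sample, 7 with the GC correction, 10 with all 12 samples in one fit, 11 without both samples numbered 3, 1 at an adjusted p under 0.01, and 1 to 5 when 1 sample was left out. In H1792 the 16 became 7 at an adjusted p under 0.01, 3 by the DEG rule, and 9 to 14 with 1 sample left out, 9 of them without RG7112 replicate 2 and 10 without RG7112 replicate 3. The 9 differences between responses became 5 at an adjusted p under 0.01 and 7 to 12 with 1 sample left out. The 12 differences in DMSO became 7 with an absolute log2 value over 1 and 10 to 13 with 1 DMSO sample left out. Calls over all genes, in the same order, were 900 in A549, then 1438, 964, 1168, 1557, 1196 and 296, and 321 to 725. In H1792 they were 3384, then 1383 and 1450, and 1851 to 3377. For the differences between responses they were 2539, then 848, and 1584 to 2978, and in DMSO 5546, then 4073, and 4715 to 5602. In H1792 the GC correction, whose construction removes the trend on GC content, reversed GAA (0.26, adjusted p = 0.0194). GRN, which was called in neither fit, went from -0.49 to 0.04 (adjusted p = 0.862). The cause of the other changes was not tested.

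Deviations of same-numbered samples correlated at 0.115, 0.0609 and 0.273 in A549 and at -0.0238, -0.00181 and 0.00346 in H1792. In A549 both samples numbered 3 deviated together, while replicate 3 against replicates 1 and 2 of the other treatment gave -0.209 to -0.132. Replicates 1 and 2 there correlated across numbers at 0.136 and 0.102, so that their numbers did not pair them. In H1792 differently numbered samples gave -0.0156 to 0.0177, and replicate numbers did not pair the samples. With the replicate block the counts were 6, 13, 9 and 13 in the order above (938, 1840, 2357 and 5314 over all genes). PSAP was then not called in A549 (adjusted p = 0.0806), nor were ASAH1, ATP6V1A, GAA and SCARB2 in H1792 (0.134, 0.114, 0.067 and 0.0574). With the GC correction and the block together the counts were 7 in A549 and 4 in H1792 (1126 and 768 over all genes), with GAA at 0.26 and GRN at 0.04 in H1792.

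LAMP1, NEU1, CTSB, CTSH, TFEB, ATP6V1A, LIPA, TPP1 and ATP6AP1 had fewer than 10 counts in some samples, which limits the precision of their values; the cause of these low counts was not tested.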
